A study of Mus musculus with 31 samples.

Results

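Cytosolic ribosomal proteins are the protein components of the ribosomes that translate nuclear-encoded mRNA. The members were chosen by name, as the protein-coding genes whose symbol in the GENCODE vM21 annotation starts with Rpl or Rps and a digit, or is Rpsa. Rps6k kinase genes and names with -ps were left out. The rule found 83 genes, all present in both count tables, among 21397 protein-coding genes in the table of the insulin experiment and 21918 in that of the ERRα3SA experiment. Core proteins of the ribosome account for 74 of them, 43 in the large subunit (Rpl) and 31 in the small subunit (Rps). The other 9 share the naming pattern, namely the paralogues Rpl3l, Rpl7l1, Rpl10l, Rpl22l1, Rpl36al, Rpl39l, Rps27l and Rps27rt, and Rps19bp1, a protein that binds Rps19. The members lie on 19 chromosomes, with at most 13 on any of them. They also share a feature that the rule did not use, short transcripts. Their main transcripts have a median length of 805 nt, against 2407 nt for protein-coding genes, and run from 345 nt (Rps27) to 5179 nt (Rps15a).

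The study asks how insulin and the phosphorylation of ERRα, an orphan nuclear receptor encoded by Esrra, shape gene expression in the mouse, and RNA from 31 samples in 8 groups was sequenced. In the insulin experiment, livers came from WT mice given saline (4 samples) or insulin (4 samples) and from ERRα-/- mice, which lack the receptor, given saline (4 samples) or insulin (3 samples). These mice, on the C57BL/6N background, were fasted for 12 h, received saline or 1 unit/kg insulin by intraperitoneal injection and were sampled 4 h later. In the ERRα3SA experiment, liver and skeletal muscle came from homozygous C57BL/6N mice in which CRISPR/Cas9 editing changed 3 serines of ERRα to alanine, and from their WT littermates (4 samples for each genotype and tissue). The labels give a standard normal diet, and the study's methods give males of 2 to 3 months. The labels name samples by genotype and number, and whether liver and muscle with equal numbers were taken from 1 mouse is not given. Total counts ran from 35871419 to 48317108 per sample in the insulin experiment and from 20481405 to 33412022 in the ERRα3SA experiment.

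Marker genes matched the labelled tissues. The summed level of 5 hepatocyte markers, with albumin (Alb) the most abundant, was 54780.3 to 104867 CPM (TMM-scaled) in the livers and at most 1.26 CPM in the muscles. The summed level of 7 muscle fibre markers, with Myh4 the most abundant, was 81802 to 185546 CPM in the muscles and under 15 CPM in every liver but WT insulin liver replicate 3, which had 112 CPM. Esrra itself stood at 0.298 to 1.63 CPM in the 7 ERRα-/- livers and at 32.3 to 96.5 CPM in the 8 WT livers of the same experiment, so these genotype labels fit the counts. The ERRα3SA change leaves the gene in place, and Esrra counts do not test that label.

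A ribosome carries 1 copy of most of these proteins, and most of their genes are expressed at a high level. Many of their mRNAs begin with a C followed by a run of C and T (a 5′ terminal oligopyrimidine, or TOP, sequence), through which signalling by insulin and mTORC1 sets how strongly they are translated. In liver, fasting and feeding change the making of ribosomes, and Rps6 of the small subunit is a classic phosphorylation target downstream of insulin.

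TOP control acts through the start of the transcript, so the 30 bases around it are shown for 8 members, 5 with a run of C and T at the start and 3 without such a run. Most members lack the run in this annotation, and the 8 were not picked in proportion. Promoter windows from RefSeq (mouse build GRCm38.p6, 250 bases before to 50 after the start) matched 64 of the 83 members by symbol. Each stretch has 12 bases before the annotated start and 18 from the start onward, read 5′ to 3′ on the gene's own strand, and capitals mark the unbroken run of C and T that begins at the start.
Rps6: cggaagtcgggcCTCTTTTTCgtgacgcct
Rps18: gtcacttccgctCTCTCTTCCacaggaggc
Rpl38: ggaagcctcgttCTTTCCCCgttctcttcg
Rpl35: ccccgccctttcCTCTTTCTCTCgaaccag
Rps27: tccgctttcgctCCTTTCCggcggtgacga
Rps16: gcttctgtcgtgacgtagcactcaatgcgc
Rps13: agcaaacgtcggTgagtggcgtcacttcct
Rpl11: acccataaggccacggggccggaagtctcc
The stretches lie at chr4:86857350-86857379, minus strand (Rps6), chr17:33955648-33955677, minus strand (Rps18), chr11:114668568-114668597, plus strand (Rpl38), chr2:39005114-39005143, minus strand (Rpl35), chr3:90213631-90213660, minus strand (Rps27), chr7:28350677-28350706, plus strand (Rps16), chr7:116334173-116334202, minus strand (Rps13) and chr4:136053376-136053405, minus strand (Rpl11). A start at C that opens a run of at least 5 C or T bases, the C included, was found in 12 of the 64 members (18.8%) and in 2.11% of 16458 other protein-coding genes. The annotated start was a C in 19 members (29.7%), against 14.0% of the other genes. Annotated starts can lie some bases from the starts used in a tissue, so these counts describe the annotation. Within the 300 bases, on either strand, CCGGAAG, the core that ETS factors bind, was in 37.5% of members and 12.3% of other genes. AAGATGG, part of the YY1 motif, was in 14.1% and 6.43%. The GC box GGGCGG was in 59.4% and 48.4%, and TATAAA in 7.81% and 12.9%. AAGGTCA, which ERRα and other nuclear receptors bind, was in 4 members (6.25%; Rps3, Rpl24, Rpl35a and Rpl10l) and in 3.88% of other genes. A match describes letters in a window and not binding.

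Ribosomal protein mRNA made up a visible part of every library. Summed over the 83 members, levels were 8008, 6299.6, 6967 and 7174 CPM in the WT saline livers and 8839, 8132, 9992 and 9919 CPM in the ERRα-/- saline livers. The sums were 8181, 10604, 6821 and 8012 CPM in the WT insulin livers and 8187, 7476 and 9103 CPM in the ERRα-/- insulin livers. WT insulin livers spread widest, with replicate 2 above and replicate 3 below every other sample of the group. In the ERRα3SA experiment the sums were 14223, 13364, 12932 and 13536 CPM in WT littermate livers and 13454, 13101, 12121 and 10911 CPM in ERRα3SA livers. Muscles had 10542, 10717, 10303 and 10252 CPM in WT littermates and 13038, 11878, 11715 and 11472 CPM in ERRα3SA mice. All 4 ERRα3SA muscles lay above all 4 littermate muscles and all 4 ERRα-/- saline livers above all 4 WT saline livers, while the groups overlapped in the other comparisons of genotype or treatment. The large-subunit core proteins summed to 4006 ± 343 CPM (mean ± SD, n = 4) and the small-subunit ones to 2944 ± 351 CPM in WT saline livers. In ERRα-/- saline livers the same sums were 5177 ± 459.9 and 3849 ± 432 CPM (n = 4). In bulk tissue, fewer cells of a type and less RNA per cell cannot be told apart.

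**Figure D1:**
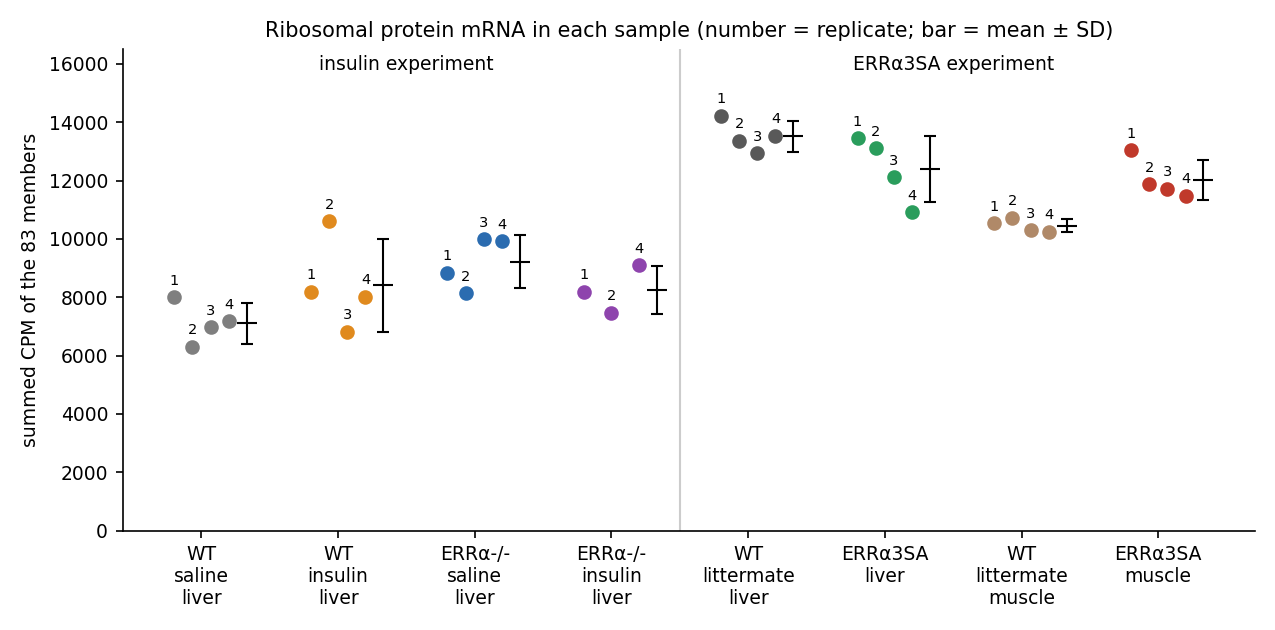
Summed level of the 83 ribosomal protein genes in each sample (CPM, TMM-scaled within each experiment), with the mean and SD of each group as a bar. ERRα3SA muscles, from 11472 CPM up, all lie above the littermate muscles, and ERRα-/- saline livers all lie above WT saline livers.

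Per kilobase of main transcript, members differed widely from each other and kept a similar order in all groups of an experiment. Rps2, near the decoding centre of the small subunit, was the most abundant in every group, at 668 CPM per kb in WT littermate livers and 444 in WT littermate muscles. In WT littermate livers it was followed by Rpl10, Rpl41, Rps18 and Rps15, and in WT littermate muscles by Rps14, Rpl4, Rps27 and Rps15. At the other end, Rpl10l and Rpl39l, paralogues known from testis, had a mean under 0.1 CPM in every group. The median member stood at 89.3 CPM per kb in WT saline livers, 99.8 in WT insulin livers, 112 in ERRα-/- saline livers and 100.2 in ERRα-/- insulin livers. It stood at 182 CPM per kb in WT littermate livers, 159.5 in ERRα3SA livers, 133 in WT littermate muscles and 164 in ERRα3SA muscles. Across 80 members with counts in each group, the rank correlation of mean level per kb was 0.99 between WT and ERRα-/- saline livers, 0.89 between littermate liver and muscle and 0.83 between WT saline livers and WT littermate livers. Members are not independent replicates, and these values describe the order only.

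Some members share exons with other genes, and how reads there were assigned was not tested. Of the 83 members, 15 share at least 10% of their main transcript's bases with exons of another gene and 66 share none. Rps10 shares 63.6%, mostly with RPS10-NUDT3, and its mean was 73.1 CPM in WT saline livers and 1.31 CPM in WT littermate livers. Rpl13a (59.3%) went from 190.1 to 9.36 CPM between the same groups, and Rpl36al (63.1%) from 47 to 1.26 CPM. Rpl35 (68.3%, with Wdr38) ran the other way, from 3.83 to 81.4 CPM, as did Rpl23a (55.4%, with Tlcd1), from 3.32 to 101 CPM. These are the only 5 members over 1 CPM that differ by more than 5-fold between the tables, where the median ratio is 2.1. The tables were counted and scaled separately, so levels were not tested across them. Rpl24 shares 71.5% of its bases with Gm28037 and stayed under 1 CPM in every sample.

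A few libraries stood apart before any comparison. ERRα3SA muscle replicate 1 had 241819 CPM from the mitochondrial genome, against 74052 to 102816 CPM in the other 7 muscles, and 185546 CPM of muscle fibre markers, against 81802 to 120220.0 CPM. Its Esrra level of 24.3 CPM was the lowest of the muscles. Its members moved in both directions. Of 77 members with a group mean of at least 1 CPM, 37 were above and 35 below all 3 other ERRα3SA muscles. Rps14 had 55.2, 243, 238 and 217 CPM in ERRα3SA muscles 1 to 4, and Rps19 had 16.8, 87.1, 81.9 and 80.5 CPM. By contrast, Rps6 had 302, 139.7, 141 and 139 CPM and Rps12 303, 114, 116 and 123 CPM. The SD of its log2 ratios to the other 3 samples was 0.84, where the other ERRα3SA muscles had 0.26 to 0.31. ERRα3SA muscle replicate 4 also differed in cell-type markers. Fibroblast markers summed to 1522, 1131, 1003 and 2692 CPM in ERRα3SA muscles 1 to 4, macrophage markers to 27.6, 22.6, 23.9 and 57.5 CPM and lymphocyte markers to 5.97, 4.49, 3.63 and 15.5 CPM, and its muscle fibre sum was the lowest of the 8 muscles. In the livers, WT insulin replicate 2 had 19127 CPM from the mitochondrial genome, below all other livers of its experiment (29997 CPM and more). ERRα3SA liver replicate 4 had 54780.3 CPM of hepatocyte markers, against 86234 to 103950.0 CPM in WT littermate livers. Their part in the results below was not tested beyond leaving each library out.

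Because members are short, each sample's balance between short and long transcripts was measured in other genes. The short-transcript shift is the median log2 deviation of non-member protein-coding genes under 1000 nt minus that of genes of 3000 nt or more, each gene taken relative to its mean over the samples of the set. It rests on 747 short and 6557 long genes in the insulin livers, 651 and 6088 in the livers of the ERRα3SA experiment and 647 and 6535 in the muscles. Among the insulin livers, those of WT mice after insulin spread most, with shifts of 0.12, 0.61, -0.13 and 0.14. WT saline livers had -0.06, -0.32, -0.15 and -0.01, ERRα-/- saline livers -0.01, -0.02, 0.01 and 0.17 and ERRα-/- insulin livers -0.02, -0.22 and -0.01. Among the WT insulin livers replicate 2 was far toward short transcripts, and WT saline replicate 2 was farthest toward long ones. WT littermate livers had 0.13, -0.01, -0.01 and 0.05 and ERRα3SA livers 0.06, 0.03, 0.00 and -0.26, with replicate 4 low. WT littermate muscles had 0.00, 0.01, -0.16 and -0.04 and ERRα3SA muscles -0.45, 0.25, 0.20 and 0.19, with replicate 1 far below the rest.

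Ribosomal protein levels followed this shift from sample to sample in liver. The member level of a sample is the median log2 deviation of its members. Over the 15 insulin livers, Pearson's r between level and shift was 0.77 and Spearman's rho 0.78. Without the 2 samples farthest from the median shift (WT insulin replicate 2 and WT saline replicate 2), r was 0.63, and with each group centred on its own mean it was 0.92. Every one of the 79 members tested had a positive r with the shift, from 0.09 for Rpl35 to 0.93 for Rps3. Over the 8 livers of the ERRα3SA experiment r was 0.93 and rho 0.86, and within groups r was 0.94. It was 0.54 without the 2 farthest samples and 0.73 without ERRα3SA liver replicate 4 alone, so its size rests in part on few samples. Here 73 of 79 members had a positive r, from -0.66 for Rpsa, the laminin receptor protein of the small subunit, to 0.98 for Rpl4. Each sample's length trend, estimated from non-member genes, was also taken off the member level. The r with the shift was then 0.34 in the insulin livers (0.57 within groups) and 0.82 in the livers of the ERRα3SA experiment (0.81 within groups). Removing the length trend thus leaves part of the link in place.

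In muscle the pattern differed from sample to sample. Over the 8 muscles r was 0.21 and rho 0.38, and within groups r was -0.05. Leaving out the 2 farthest samples (ERRα3SA replicates 1 and 2) gave 0.95, and leaving out ERRα3SA replicate 1 alone gave 0.96, so the low pooled value rests on that library. The pooled value also holds the gap between genotypes, and within groups r was 0.75 without that library and 0.80 with means in place of medians. Leaving out ERRα3SA replicates 2 or 4 or littermate replicate 3 instead gave 0.045, 0.08 and 0.09. Across the muscles 44 of 80 members had a positive r, from -0.91 for Rps24 to 0.97 for Rpl34. Level and shift come from the same libraries and share their scaling, and a shared source of both was not tested. Among other measures of the 15 insulin livers, the summed ribosomal protein pseudogenes had an r of 0.72 with the member level (rho 0.61), liver endothelium markers -0.54 (rho -0.40), the mitochondrial genome -0.53 (rho -0.45) and total counts 0.25 (rho 0.07). In the 8 livers of the ERRα3SA experiment pseudogenes had 0.86 (rho 0.69), lymphocyte markers -0.74 (rho -0.81), hepatocyte markers 0.72 (rho 0.05) and total counts 0.70 (rho 0.74). In the 8 muscles pseudogenes had an r of 0.78 with the member level (rho 0.81), the mitochondrial genome 0.17 (rho -0.45) and total counts 0.19 (rho 0.07). The r of the same measures with the muscle shift was -0.40, -0.89 and 0.82, in that order. Whether reads of the members were counted in the pseudogenes was not tested, so the pseudogene sum may not be a separate measure.

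**Figure D2:**
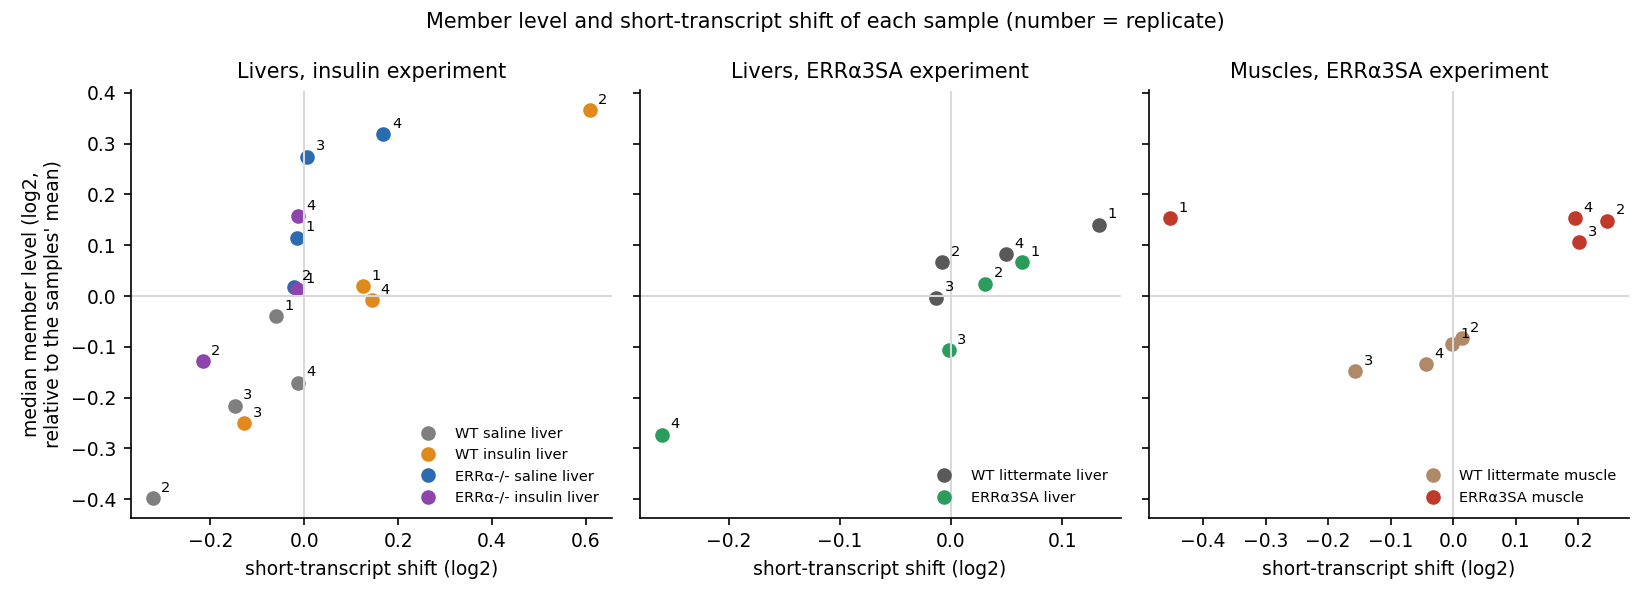
Median level of the ribosomal protein genes against the short-transcript shift of other genes, both on the log2 scale and relative to the mean of the samples in the panel, 1 point per sample with its replicate number. The livers lie along a rising line (r of 0.77 and 0.93), while ERRα3SA muscle replicate 1 combines a shift of -0.45 with a member level of 0.15.

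Loss of ERRα in fasted, saline-treated mice asks what the receptor does without added insulin, and here ribosomal protein genes stood out by number. Most members were higher in ERRα-/- livers, in both subunits and by similar amounts. Of 79 members tested, 62 were called higher and 0 lower, where a call by the quasi-likelihood test of edgeR needs a fold change of at least 1.2 and an unadjusted p under 0.05. Of all 13481 genes tested, 5.98% were called higher and 5.3% lower. The median member was 0.40 on the log2 scale, and 77 of 79 were above 0. The large subunit had 35 of 42 called and the small subunit 26 of 31, against 1 of 6 members outside the core.

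Rpl30, a large-subunit protein, had 46.2, 37.7, 43.2 and 44 CPM in the WT saline livers and 57.4, 56.2, 67.3 and 72.9 CPM in the ERRα-/- saline livers. Rps13, on the body of the small subunit, had 36.3, 31.9, 35.8 and 42.5 CPM in the WT and 47.4, 45.8, 58.8 and 63.6 CPM in the ERRα-/- saline livers. Rps16, in the head of the small subunit, had 59.6, 63.5, 64.1 and 80.2 CPM in the WT and 95.3, 83.3, 99 and 115 CPM in the ERRα-/- saline livers. In all 3 genes every ERRα-/- liver was above every WT liver, and ERRα-/- replicates 3 and 4 were the highest. The log2 fold changes were 0.57 ± 0.12 (± SE, adjusted p = 0.131) for Rpl30, which shares 57.4% of its bases with another annotated gene. For Rps13 the change was 0.56 ± 0.13 (adjusted p = 0.181), and for Rps16 0.55 ± 0.13 (adjusted p = 0.175; Benjamini-Hochberg over all genes, edgeR). Rpl36, another large-subunit protein, had 39.6, 36.4, 40.7 and 43.8 CPM in the WT and 56.2, 55.3, 60.3 and 62.8 CPM in the ERRα-/- saline livers, again without overlap. Its log2 fold change was 0.55 ± 0.10 (adjusted p = 0.096). In 36 of the 79 members the groups did not overlap, against 7.1% of all genes tested.

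No member passed an adjusted p under 0.05 by edgeR, where 0.0816% of all genes did. At an unadjusted p under 0.05 by edgeR there were 64 members and 1625 of all 13481 genes. DESeq2 called 64 members and gave 19 an adjusted p under 0.05 (12.2% and 1.88% of all genes). Removing each sample's length trend, estimated from non-member genes, left 45 members called higher, all of them among the 62, with a median of 0.31, against 5.45% of all genes. Other genes of 500 to 1000 nt also leaned upward, with 10.8% of 619 called higher, 4.04% lower and a median of 0.11. In the same length range 36 of 44 members were called higher, with a median of 0.41. Markers of Kupffer cells, the liver's resident macrophages, moved the other way. Of 5 markers 3 were called lower (Adgre1, Csf1r and Vsig4), Clec4f was the most abundant, and none was at 0. Their sum was 165, 354, 214 and 243 CPM in WT and 191, 179.9, 176 and 189.9 CPM in ERRα-/- saline livers, and its part in the result was not tested.

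**Figure D3:**
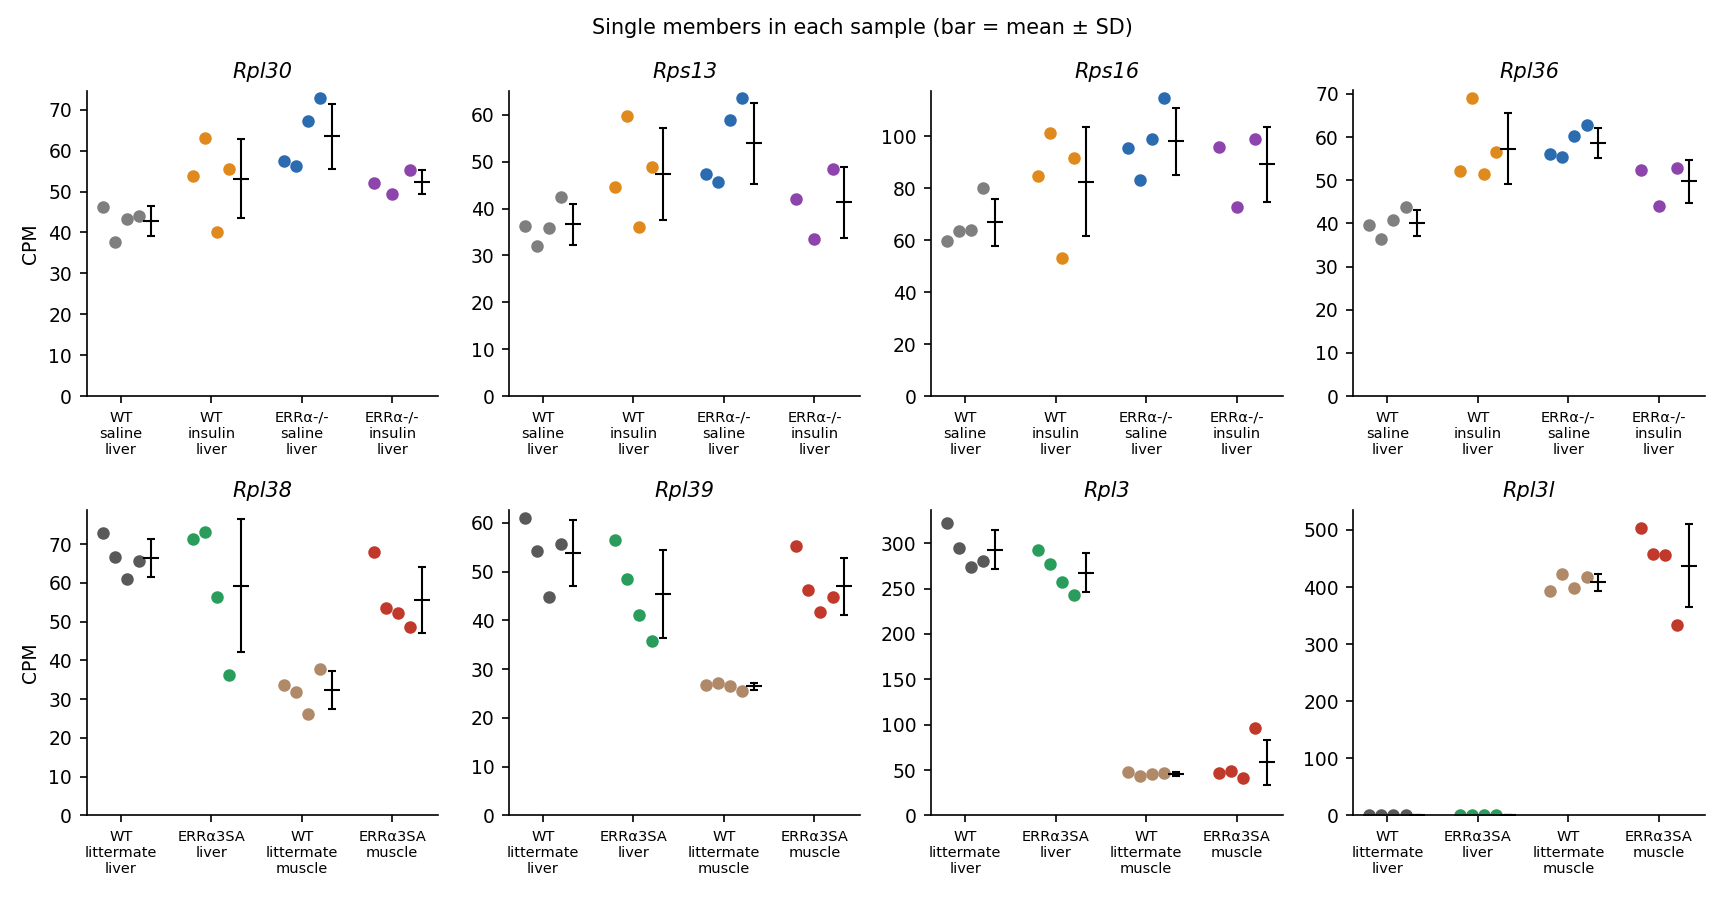
CPM of single ribosomal protein genes in each sample, with the mean and SD of each group as a bar; the top row shows the insulin experiment and the bottom row the ERRα3SA experiment. Rpl30, Rps13, Rps16 and Rpl36 are higher in all 4 ERRα-/- than in all 4 WT saline livers, Rpl38 and Rpl39 are higher in all 4 ERRα3SA than in all 4 littermate muscles, and Rpl3l is near 0 in liver.

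Insulin in WT liver, the comparison that asks for the acute response to the hormone, gave a smaller lean of the members upward. All but 2 of 79 members had a positive log2 fold change, with a median of 0.23. The median was 0.10 without WT insulin replicate 2 (68 members above 0) and 0.06 with the length trend removed (58 above 0). Calls went in 1 direction, with 13 higher and 0 lower, against 8.34% of 13463 genes called higher and 8.91% lower. Rps3, at the mRNA entry of the small subunit, had 158, 131, 146 and 155 CPM in the WT saline livers and 199, 289.8, 163 and 188 CPM in the WT insulin livers. Rpl36 had 52.2, 69.2, 51.6 and 56.5 CPM in the WT insulin livers, all above the WT saline livers given earlier. Rpl11, which binds Mdm2 when free of the ribosome, had 81.9, 75.6, 79.5 and 83.3 CPM in the WT saline livers and 101, 123, 86.8 and 105 CPM in the WT insulin livers. In each of these genes the insulin livers lay above the saline livers, with replicate 2 the highest. The log2 fold change was 0.51 ± 0.17 for Rps3 (adjusted p = 0.15), 0.52 ± 0.13 for Rpl36 (adjusted p = 0.0583) and 0.38 ± 0.13 for Rpl11 (adjusted p = 0.147; Benjamini-Hochberg, edgeR). Rps19bp1, the Rps19 binding protein, had 5.1, 4.59, 6.74 and 5.55 CPM in the WT saline livers and 7.55, 8.94, 8.25 and 7.78 CPM in the WT insulin livers, a log2 fold change of 0.56 ± 0.18 (adjusted p = 0.127).

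By edgeR, 0 members had an adjusted p under 0.05, against 3.16% of all genes. An unadjusted p under 0.05 was reached by 14 of 79 members and by 2353 of the 13463 genes tested. DESeq2 gave 1 member an adjusted p under 0.05 (7.0% of all genes). Groups did not overlap in 5 members and in 12.4% of all genes tested. The share of members called higher was near that of other short genes. Of 619 other genes of 500 to 1000 nt, 15.3% were called higher, with a median of 0.22, beside 9 of 44 members with a median of 0.25. With the length trend removed 3 members were called higher, all 3 of them called before (9.37% of all genes), and the calls of Rps19bp1 (log2 fold change 0.40) and Rpl11 (0.21) ended. The count also moved with single libraries: it was 4 without WT saline replicate 2, 5 without WT insulin replicate 2, 7 and 8 without WT saline replicates 3 and 4, and 33 without WT insulin replicate 3. All genes called in the fits that leave out 1 library ran from 13.1% to 18.3%.

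Insulin in ERRα-/- liver asks what the hormone does without the receptor, and there the members leaned downward. Of 79 members, 9 were called lower and 1 higher, with a median log2 fold change of -0.15 and 6 members above 0. The lean was smaller with the length trend removed (median -0.05, 29 members above 0) and without ERRα-/- insulin replicate 2 (-0.09, 20 above 0). All genes tested (13684) had 8.05% called higher and 9.14% lower. Rpl35, near the exit of the nascent chain tunnel, was the member called higher, with 3.91, 3.06, 2.96 and 4.46 CPM in the ERRα-/- saline livers and 7.23, 5.85 and 6.08 CPM in the 3 ERRα-/- insulin livers. Its log2 fold change was 0.83 ± 0.21 (adjusted p = 0.0658), and it shares most of its bases with Wdr38. Rpl7l1, a paralogue of Rpl7, had 77, 79.3, 68.7 and 73 CPM in the ERRα-/- saline and 59.6, 52.6 and 63.6 CPM in the ERRα-/- insulin livers, a log2 fold change of -0.35 ± 0.11 (adjusted p = 0.108; Benjamini-Hochberg, edgeR). For Rpl30 the ERRα-/- insulin livers had 52.2, 49.4 and 55.3 CPM, all below the ERRα-/- saline livers, with a log2 fold change of -0.28 ± 0.12 (adjusted p = 0.234). Rps19, a small-subunit protein whose loss causes Diamond-Blackfan anaemia in people, had 64, 63, 62.4 and 76 CPM in the ERRα-/- saline and 60.2, 46.8 and 57.2 CPM in the ERRα-/- insulin livers, a log2 fold change of -0.28 ± 0.12 (adjusted p = 0.249).

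Adjusted, 0 members passed by edgeR and 1 by DESeq2, against 2.91% of all genes by edgeR and 7.4% by DESeq2. An unadjusted p under 0.05 by edgeR was reached by 11 of 79 members and by 2430 of the 13684 genes tested. In 6 members the groups did not overlap, against 17.6% of all genes. The members' share called lower was near the share of all genes. Of 630 other genes of 500 to 1000 nt, 8.73% were called lower and 3.17% higher, with a median of -0.10. In that length range 8 of 44 members were called lower and 1 higher, with a median of -0.16. With the length trend removed, 1 higher and 1 lower call stood, both made before (8.86% and 8.08% of all genes), and those of Rpl30 (-0.18) and Rps19 (-0.15) ended. Leaving out ERRα-/- insulin replicate 2, ERRα-/- insulin replicate 1, ERRα-/- saline replicate 4 or ERRα-/- saline replicate 3 gave 2, 3, 3 and 4 calls, and leaving out ERRα-/- saline replicate 2 gave 18, while all genes called ran from 12.3% to 18.5% over such fits. The call of Rpl30 ended without ERRα-/- insulin replicate 1 (log2 fold change -0.28) or 2 (-0.24) or ERRα-/- saline replicate 3 (-0.25) or 4 (-0.21). That of Rps19 ended without ERRα-/- insulin replicate 2 (-0.18) or 4 (-0.31) or ERRα-/- saline replicate 4 (-0.22).

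After insulin, ERRα-/- and WT livers differed little in these genes. The median member stood at -0.02, with 2 members called higher and 1 lower of 79, while 4.57% of 13665 genes were called higher and 5.42% lower. Rpl35 was one of those called higher, with 4.38, 5.42, 4.16 and 2.63 CPM in the WT insulin livers and 7.23, 5.85 and 6.08 CPM in the ERRα-/- insulin livers and a log2 fold change of 0.61 ± 0.26 (adjusted p = 0.472). Its call ended without any 1 of 6 of the 7 libraries, the exception being WT insulin replicate 2 (log2 fold change 0.44 to 0.67 in those 6). Rps19bp1 was called lower at -0.61 ± 0.21 (adjusted p = 0.353; Benjamini-Hochberg, edgeR), with 5.91, 6.17 and 4.04 CPM in the ERRα-/- insulin livers, and its call ended without ERRα-/- insulin replicate 4 (-0.42) and with the length trend removed (-0.41). By edgeR 0 members passed the adjusted threshold (0.0585% of all genes), and 3 had an unadjusted p under 0.05 (1371 of 13665 genes). DESeq2 gave 0 members an adjusted p under 0.05 (1.81% of all genes). Groups did not overlap in 2 members and in 12.4% of all genes. Other short genes leaned downward here: of 628 at 500 to 1000 nt, 12.1% were called lower and 0.955% higher, with a median of -0.22, beside -0.03 for members of that length. Relative to that trend the members were high, with 15 called higher once the length trend was removed (2 of them called before) and a median of 0.20. In that fit 4.79% of all genes were called higher and 5.39% lower. The count was 0 without ERRα-/- insulin replicate 4 (edgeR) and 1 without ERRα-/- insulin replicate 1 or WT insulin replicates 1 or 3, with 5.78% to 13.2% of all genes called over such fits.

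The difference between the insulin effects of the genotypes was tested directly. As WT effect minus ERRα-/- effect, the median member was 0.39, and 23 members were called higher and 1 lower of 79, against 4.75% and 4.04% of 14670 genes. Rps14, of the small-subunit platform, had 146, 96.3, 113 and 117 CPM in WT saline and 159, 225, 139 and 142 CPM in WT insulin livers. In ERRα-/- livers it had 152, 129, 186 and 183 CPM after saline and 132, 119 and 146 CPM after insulin. Its difference was 0.79 ± 0.25 (log2, adjusted p = 0.442), and Rps19bp1 had 0.89 ± 0.28 (adjusted p = 0.442), Rpl36 0.75 ± 0.17 (adjusted p = 0.422) and Rps13 0.75 ± 0.24 (adjusted p = 0.45). Rpl35 was the member called lower, at -0.71 ± 0.33 (adjusted p = 0.557; Benjamini-Hochberg, edgeR). The call of Rpl35 ended in 10 of 15 fits that leave out 1 library, those without ERRα-/- insulin replicates 1 or 4, ERRα-/- saline replicates 2 or 3, WT insulin replicates 1, 3 or 4 or WT saline replicates 1, 2 or 3 (-0.75 to -0.55).

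For the interaction, edgeR gave 0 members an adjusted p under 0.05 and 0% of all genes. At an unadjusted p under 0.05 there were 24 members and 1289 of 14670 genes. DESeq2 gave 1 member an adjusted p under 0.05 (0.136% of all genes). Short genes outside the list shared the direction, with 12.5% of 687 genes of 500 to 1000 nt called higher, 0.437% lower and a median of 0.34. Removing the length trend left 5 members higher and 2 lower, 6 of them called before (3.63% and 2.77% of all genes), with a median of 0.13, and ended the call of Rpl36 (0.29). Single libraries moved the count to 11 (without ERRα-/- insulin replicate 2), 12 (WT saline replicate 2), 13 (ERRα-/- saline replicate 4), 14 (WT insulin replicate 2) and 46 (WT insulin replicate 3), while all genes called ran from 5.82% to 10.8% over such fits. The 4 comparisons of the insulin experiment share their groups, so their values stand side by side and are not separate evidence.

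**Figure D4:**
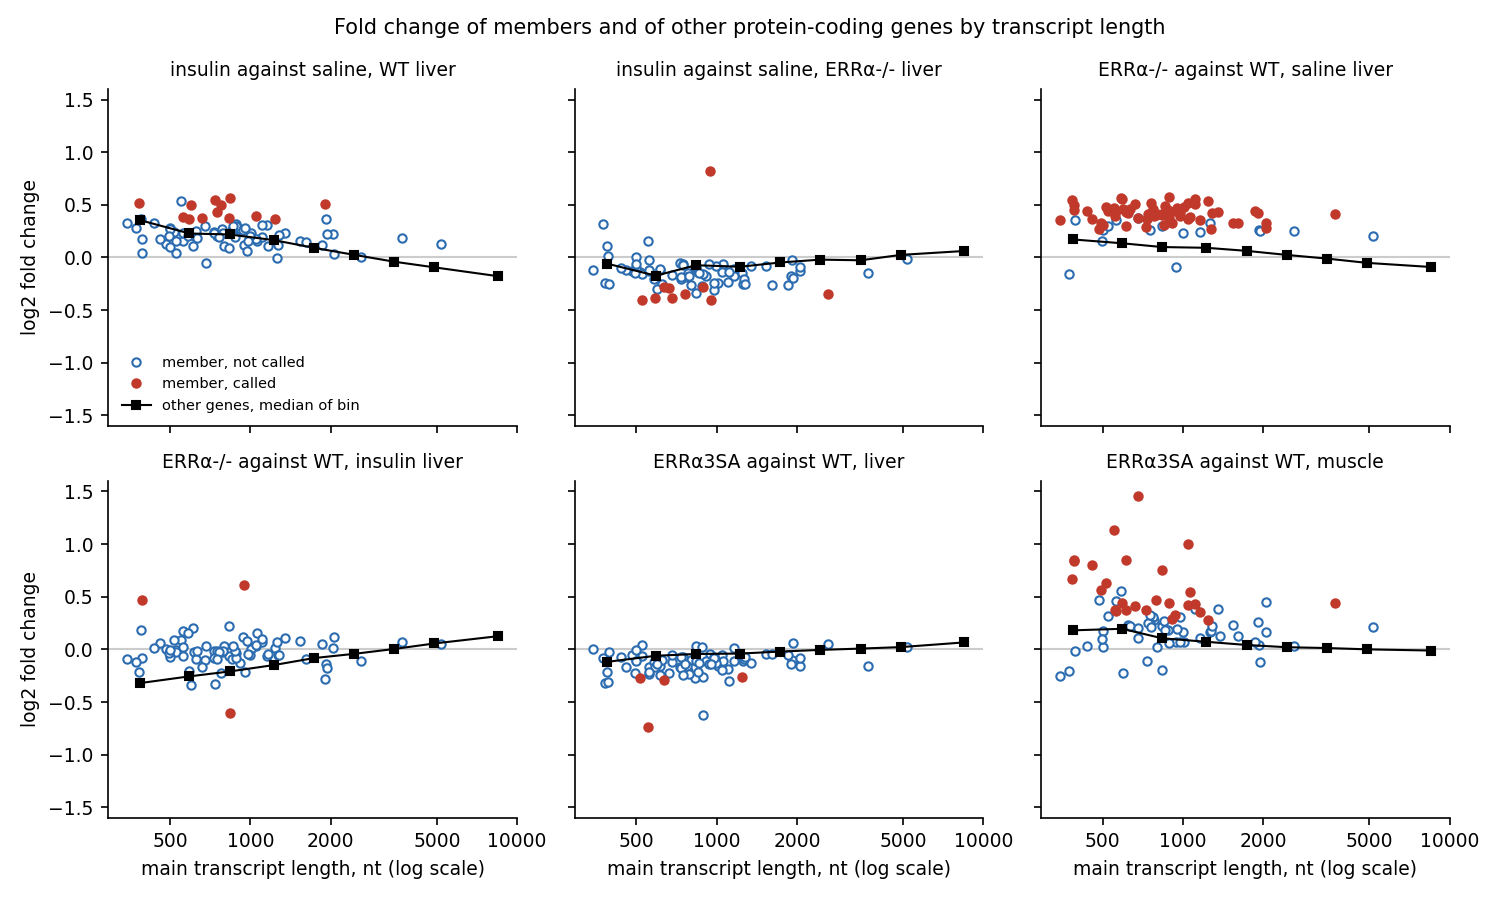
Log2 fold change of each ribosomal protein gene (points, filled where called) against the length of its main transcript, with the median of other protein-coding genes in bins of length as a black line. In saline livers most ERRα-/- against WT points lie above the line, while after insulin in WT liver they lie around it.

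The ERRα3SA mice ask what follows when the receptor cannot be phosphorylated at 3 serines, and in liver the ribosomal protein genes moved little. The median member was -0.13 in ERRα3SA against WT littermate livers, and 8 of 79 were above 0. No member was called higher and 4 were called lower, while 2.5% of 13339 genes were called higher and 2.38% lower. Rpl22l1, the paralogue of Rpl22 that can take its place in the large subunit, had 13.7, 14.5, 13.5 and 13.2 CPM in the WT littermate livers and 11.4, 9.25, 6.62 and 5.58 CPM in the ERRα3SA livers. Every ERRα3SA liver was below every littermate liver, with replicate 4 the lowest, and the log2 fold change was -0.74 ± 0.19 (adjusted p = 0.528). Rpl22 itself had 104, 90.8, 88.7 and 88.7 CPM in littermate and 89.8, 90.6, 83.3 and 69.3 CPM in ERRα3SA livers. Per kilobase, Rpl22l1 made up 35.4% ± 1.9 of the pair in littermate livers and 26.3% ± 4.37 in ERRα3SA livers (SD, n = 4).

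Groups did not overlap in 2 members, against 4.93% of all genes. By edgeR 0 members passed an adjusted p under 0.05 (0% of all genes). An unadjusted p under 0.05 was reached by 8 of 79 members and by 996 of the 13339 genes tested. DESeq2 called 3 members and gave 0 an adjusted p under 0.05 (4.95% and 0.322% of all genes). With the length trend removed the count was 1 (1.99% of all genes lower) and the median -0.07, and each of the 8 libraries moved it. It was 14, 11, 2 and 1 without ERRα3SA replicates 1, 2, 3 and 4, and 1, 2, 8 and 1 without WT littermate replicates 1, 2, 3 and 4, with 3.75% to 6.6% of all genes called over these fits. Among marker lists, 3 of 4 cholangiocyte markers were called lower in ERRα3SA livers (Epcam, Krt7 and Krt19), and none was at 0. The fourth and most abundant, Sox9, was not called and had a higher mean in ERRα3SA livers (9.15 CPM) than in littermate livers (7.07 CPM). The sum of all 4 was 12.6, 9.83, 12.1 and 14.5 CPM in littermate and 12.7, 8.78, 10.6 and 14.4 CPM in ERRα3SA livers, and its part was not tested. All 5 Kupffer cell markers leaned upward in ERRα3SA livers (median 0.18), with 1 called higher and 0 lower. Their sum was 306, 335, 334 and 331 CPM in littermate and 374, 380, 326 and 428 CPM in ERRα3SA livers. Over these 8 livers its r with the member level was -0.67 (rho -0.48), and its part was not tested.

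In muscle of ERRα3SA mice many ribosomal protein genes were higher. Of 80 members tested, 27 were called higher and 0 lower, against 2.78% and 1.75% of 14081 genes, and the median member was 0.26. The large subunit had 17 of 43 called and the small subunit 9 of 31. Rpl39, which lines the exit tunnel of the large subunit, had 26.8, 27.2, 26.6 and 25.5 CPM in the WT littermate muscles and 55.3, 46.2, 41.7 and 44.9 CPM in the ERRα3SA muscles. Rpl38, known for its part in translating Hox mRNAs, had 33.7, 31.7, 26.2 and 37.8 CPM in the littermate and 67.9, 53.4, 52.3 and 48.5 CPM in the ERRα3SA muscles. Rps29, in the head of the small subunit, had 44.1, 37.7, 34.4 and 35.7 CPM in the littermate and 45, 80.2, 72.1 and 70.3 CPM in the ERRα3SA muscles. All 4 ERRα3SA muscles were above all 4 littermate muscles in these genes, with replicate 1 the highest for Rpl38 and Rpl39 and the lowest for Rps29. Log2 fold changes were 0.85 ± 0.11 for Rpl39 (adjusted p = 0.12), 0.80 ± 0.15 for Rpl38 (adjusted p = 0.305) and 0.85 ± 0.18 for Rps29 (adjusted p = 0.477; Benjamini-Hochberg, edgeR). Rpl24 was also called, at 1.46 ± 0.39 (adjusted p = 0.729), from 0.211, 0.119, 0.152 and 0.268 CPM in littermate and 0.732, 0.43, 0.453 and 0.48 CPM in ERRα3SA muscles, levels too low to say more.

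In 23 members the muscle groups did not overlap, against 4.48% of all genes. By edgeR 0 members passed the adjusted threshold (0% of all genes), and 30 had an unadjusted p under 0.05 (672 of 14081 genes). DESeq2 called 29 members and gave 9 an adjusted p under 0.05 (5.22% and 0.398% of all genes). Without the library that stood apart, ERRα3SA replicate 1, 37 members were called higher and 30 passed the adjusted threshold, with a median of 0.24. In that fit 10.3% of all genes were called higher and 3.23% passed the adjusted threshold. The ERRα3SA muscles left in it had shifts of 0.25, 0.20 and 0.19, and the littermate muscles at most 0.01. Genotype and short-transcript shift cannot be told apart there, and r between member level and shift was 0.96. This fit was not repeated with the length trend removed. Removing the length trend gave 15 higher and 1 lower, 14 of them called before, against 2.88% and 1.58% of all genes. The member level less that trend was 0.55, -0.03, -0.03 and -0.04 in ERRα3SA muscles 1 to 4. In littermate muscles 1 to 4 it was -0.12, -0.09, -0.05 and -0.12. Replicate 1 thus stood far above the rest, and the other ERRα3SA muscles lay close to the littermates. The SD of this level over the 8 muscles was 0.22, against 0.14 before removal, and its r with the shift was -0.72. A replicate block also gave fewer calls, listed at the end. Other genes of 500 to 1000 nt had 8.74% of 595 called higher, 1.18% lower and a median of 0.13, beside 15 of 44 members with a median of 0.28. This includes ERRα3SA replicate 1, where other genes under 1000 nt had a median log2 deviation of -0.36 and members 0.15. In ERRα3SA muscles 2 to 4 these short genes had 0.19, 0.17 and 0.15, beside members at 0.15, 0.11 and 0.15. The members' excess over short genes thus rests largely on replicate 1. Mbp and S100b, which Schwann cells express, went the other way without overlap and were called lower, and their part was not tested. Mbp had 82.4, 58.6, 64 and 59.8 CPM in littermate and 18.6, 30.6, 42.7 and 43.9 CPM in ERRα3SA muscles, and S100b 3.62, 3.4, 2.43 and 3.29 and 1.8, 1.75, 1.97 and 1.79 CPM.

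The ERRα3SA effect in muscle minus that in liver was positive for 72 of 81 members, with a median of 0.38. It was called higher for 33 and lower for 0, against 3.16% and 2.41% of 15688 genes. Rps28, a small-subunit protein, had 58.7, 53, 47.9 and 50.7 CPM in littermate and 50.7, 54.1, 36.8 and 28 CPM in ERRα3SA livers. In muscle it had 26.8, 22.6, 19.9 and 22.4 CPM in littermates and 25.2, 46.9, 41.6 and 46.7 CPM in ERRα3SA mice, where replicate 1 was the only one near the littermates. Its difference between tissues was 1.12 ± 0.29 on the log2 scale (adjusted p = 0.555), and for Rpl39 it was 1.07 ± 0.19 (adjusted p = 0.168). Rpl22l1 had 7.21, 7.51, 5.76 and 4.47 CPM in littermate and 3.04, 16.3, 16.2 and 17.8 CPM in ERRα3SA muscles, low in replicate 1 and high in the other 3, and a difference between tissues of 1.84 ± 0.52 (adjusted p = 0.642). Rpl24, under 1 CPM throughout, had 2.18 ± 0.57 (adjusted p = 0.555; Benjamini-Hochberg, edgeR). Adjusted, 0 members passed by edgeR (0% of all genes), 33 had an unadjusted p under 0.05, and DESeq2 gave 5 (0.159% of all genes). Without ERRα3SA muscle replicate 1, 43 members were called and 20 passed the adjusted threshold, against 17.3% and 2.3% of all genes. The muscle genotypes are then also parted by the short-transcript shift. With the length trend removed, 26 were higher and 1 lower, 25 of them called before, against 3.16% and 1.94% of all genes. ERRα3SA muscle replicate 1, far above the other muscles once the trend was removed, is part of this fit too.

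Between tissues of WT littermates the paralogues parted most clearly. Rpl3, which reaches toward the peptidyl transferase centre, had 322, 295, 274 and 279.9 CPM in the livers and 47.7, 43.1, 45.7 and 46.3 CPM in the muscles. Its paralogue Rpl3l, known from heart and skeletal muscle, had 0.0958, 0.0793, 0.0429 and 0.179 CPM in the livers and 393, 423, 398 and 418 CPM in the muscles. Rpl3l thus made up 89.8% ± 0.674 (SD, n = 4) of the pair per kilobase in littermate muscles. In ERRα3SA muscles its share was 87.6% ± 6.83, with replicate 4 the lowest at 77.4%, and in no liver was it above 0.561%. The log2 fold change of Rpl3, muscle against liver, was -2.65 ± 0.08 (adjusted p = 2.73e-13), and Rpl3l was called higher (adjusted p = 2.19e-16; Benjamini-Hochberg, edgeR) from liver counts too few for a firm fold. Rps27l, the p53-responsive paralogue of Rps27, made up 48.4% ± 2.6 of its pair in littermate livers and 23.7% ± 1.47 in littermate muscles. Rpl22l1 made up 20.6% ± 3 of its pair in littermate muscles and 30.8% ± 17 in ERRα3SA muscles.

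Most other members were lower in muscle relative to all genes, as 50 of 80 were called lower and 2 higher, with a median of -0.44. Tissues differ in most genes, with 42% of 14886 called higher and 42.2% lower, so before any correction for length members have more lower and fewer higher calls than genes at large. Rps16 had 203, 189, 176 and 198 CPM in livers and 73.3, 72.3, 71.1 and 65.9 CPM in muscles, a log2 fold change of -1.41 ± 0.07 (adjusted p = 1e-10). Rpl13a and Rps10, which share exons with other genes and have few counts in this table, had -1.98 ± 0.14 (adjusted p = 5.5e-09) and -1.90 ± 0.30 (adjusted p = 3.68e-05; Benjamini-Hochberg, edgeR). Rps24 was the core member called higher, with 154, 158, 141 and 147 CPM in livers and 169, 182, 172 and 191 CPM in muscles and 0.29 ± 0.07 (adjusted p = 0.00104). Its fold change came close to the limit of 1.2, and the call ended without littermate liver replicate 3 (0.23) or 4 (0.25) or littermate muscle replicate 4 (0.22). An adjusted p under 0.05 was reached by 64 members and 86.5% of all genes, and groups did not overlap in 61 members and 82.9% of all genes. With the length trend removed, 22 members were called higher and 30 lower, 32 of them called before in the same direction, and the median moved to -0.10. In that fit 43.9% of all genes were called higher and 40.7% lower, so members no longer have the larger share of lower calls.

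**Figure D5:**
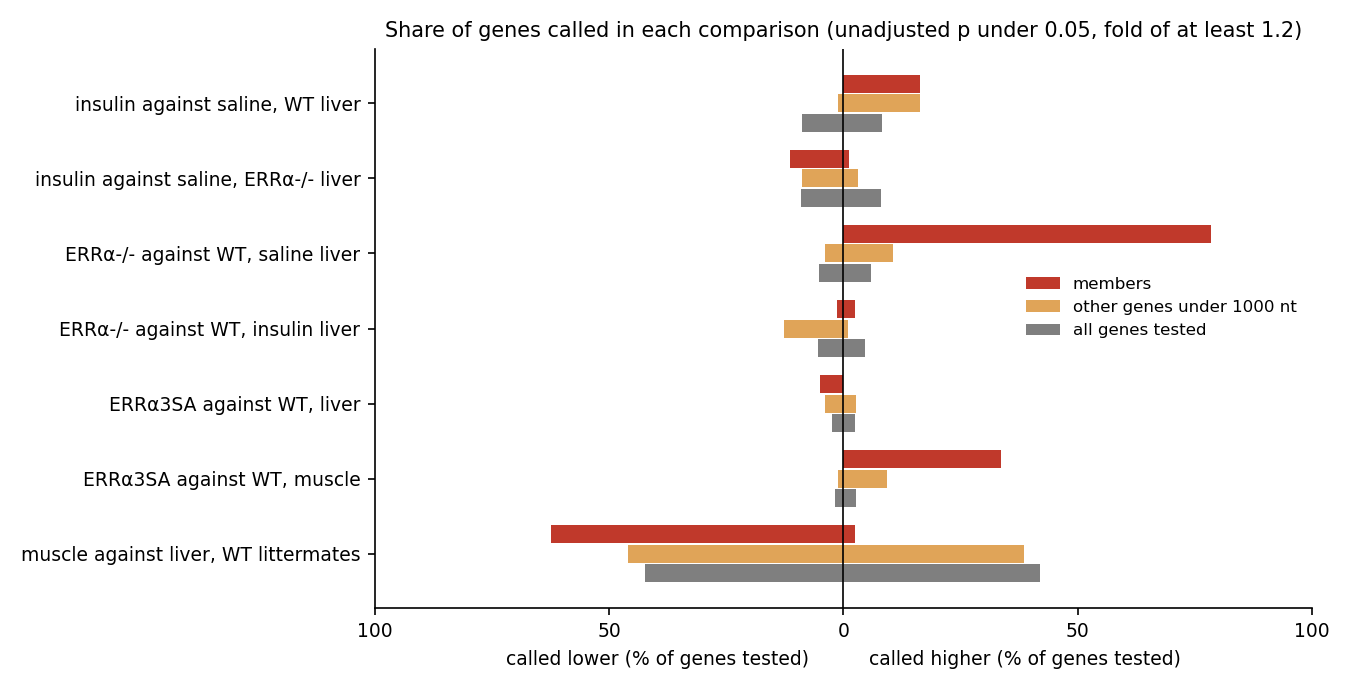
Share of genes called higher (right) and lower (left) among the ribosomal protein genes, other protein-coding genes with a main transcript under 1000 nt and all genes tested. The members exceed both other sets for ERRα-/- against WT saline livers (62 of 79 called higher) and ERRα3SA against WT littermate muscles (27 of 80). The muscle bars include ERRα3SA replicate 1, where other short genes were low and the median member was not.

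Several members were chosen for their known roles whatever their values. Rps6 had 146, 100.4, 123 and 118 CPM in WT saline and 160.4, 135, 192 and 179.8 CPM in ERRα-/- saline livers, groups that overlap, with a log2 fold change of 0.45 and a call (adjusted p = 0.249 by Benjamini-Hochberg, edgeR). After insulin it had 133, 177, 111 and 137 CPM in WT and 129.6, 136 and 151 CPM in ERRα-/- livers, with no call for insulin in either genotype. Rpl41, which encodes the smallest protein of the ribosome, had 90.8, 64.1, 72 and 73.9 CPM in WT saline and 93.4, 91, 107 and 118 CPM in ERRα-/- saline livers and was called at 0.44. Rpl5, the partner of Rpl11 in the complex with 5S RNA, was called at 0.33 in the same comparison, and Rpl4 at 0.32. Rpsa was not called in any comparison. In ERRα3SA muscles Rpl11 had 151, 123, 112 and 117 CPM, above all littermate muscles (79.3, 80.2, 71.3 and 72.1 CPM), and was called at 0.76. Rpl11 does not stand for the other chosen members. Before scaling, Rps6 had 4374, 4359, 4185 and 4213 reads in littermate and 5366, 4229, 4341 and 4359 in ERRα3SA muscles. Only replicate 1 was above the littermates in these reads. Rpl4 and Rpl5 were likewise flagged as high in ERRα3SA muscle replicate 1 (915 and 333 CPM). Rpl36al made up 55.4% ± 3.14 (SD, n = 4) of its pair with Rpl36a in WT saline livers, and it was under 3% of the pair in every sample of the other table.

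Ribosomal genes outside the naming rule went the members' way in some comparisons only. Of Rplp0, Rplp1, Rplp2, Fau and Rack1, all but Rplp0 were called higher in ERRα-/- saline livers, with Fau at 0.46, Rplp1 at 0.44, Rplp2 at 0.40 and Rack1 at 0.32 on the log2 scale. Rplp0, of the stalk of the large subunit and also called Arbp, serves as a reference transcript in quantitative PCR. Its log2 fold change was 0.20 in ERRα-/- against WT saline livers, 0.29 for insulin in WT liver, -0.02 in ERRα3SA liver and 0.07 in ERRα3SA muscle, none of them called. In littermate muscle against liver Rplp0 was called higher at 0.38, where most members were called lower. None of these 5 genes was called in ERRα3SA muscle, and for insulin in WT liver only Fau was.

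Other lists were counted beside the share of all genes called, 5.98% higher and 5.3% lower in ERRα-/- saline livers and 2.78% and 1.75% in ERRα3SA muscles. Of 16 other TOP mRNAs, mostly translation factors, 4 were called higher and 2 lower in ERRα-/- saline livers, with a median of 0.19. The elongation factor genes Eef1b2 (0.49) and Eef1g (0.31) were among the higher ones, and Pabpc1 (-0.35) and Eif4b (-0.30) were the lower ones. In ERRα3SA muscles 1 of the 16 was called higher, Hnrnpa1 at 0.36. Of 31 ribosome biogenesis genes 4 were called higher in ERRα-/- saline livers (median 0.04), among them Nip7 at 0.57 and Nop58 at 0.52. In ERRα3SA muscles 2 of them were called higher (median 0.13), and in ERRα3SA livers 3 were higher and 1 lower (all genes 2.5% and 2.38%). Counts of 1 or 2 genes are too few to compare with these shares. Proteins of the mitochondrial ribosome, chosen by symbol, had 7 of 76 called higher and 4 lower in ERRα-/- saline livers (median 0.08), and 7 of 77 higher and 0 lower in ERRα3SA muscles (median 0.10). In the saline livers these counts are near the share of all genes. For insulin in WT liver 13 of these 76 were called higher and 0 lower (median 0.21), beside 13 of 79 members higher. The interaction had 19 of 76 higher and 0 lower (median 0.31), beside 23 of 79 members higher. In ERRα-/- against WT livers after insulin 0 of 76 were higher and 14 lower (median -0.28), where 2 members were higher and 1 lower.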

How the data were processed

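Bulk RNA sequencing of liver and skeletal muscle gave 1 table of read counts per gene for each experiment, which the authors deposited after alignment with STAR to the mouse genome mm10. Total counts per sample, 20481405 to 48317108, set the counting error. Genes were tested with edgeR 4.0.16 (filterByExpr, TMM, quasi-likelihood F test) in R 4.3.3, each comparison fitted on its own samples and p-values adjusted over all genes by Benjamini-Hochberg. CPM in the text use TMM scaling over a whole experiment. Transcript lengths came from GENCODE vM21. The length trend was a natural spline (4 degrees of freedom) over non-member protein-coding genes, used as an offset per sample. DESeq2 1.42.0, leaving out each sample and the other alternatives are reported at the end. The steps were tested on simulated data. Results for some genes are not reported here. Members and lists were chosen with earlier results of these data known. In each comparison the named members were those called, without overlap between the groups, with the largest changes; in differences of effects they were the called members with the largest changes. Rps6, Rpsa, Rpl4, Rpl5, Rpl11, Rpl41 and the paralogues were chosen for their roles, and other members were named for their level or their link to the shift after their values were seen.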

Additional observations from a re-analysis of the deposited data

Results flagged for a closer look

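An outlier test (Dixon's) over 231 groups of values picked out 24 single values, where chance alone picks out about 1 group in 20. In ERRα3SA muscle replicate 1 these were a short-transcript shift of -0.45, high levels of Rpl4 915, Rpl5 333, Rps24 314 and Rps6 302 CPM, and levels of Rpl22l1 3.04, Rps13 61, Rps14 55.2, Rps15 101, Rps16 35.4, Rps18 126, Rps19 16.8 and Rps27 62.9 CPM. In ERRα3SA muscle replicate 4 it was Rpl3 at 95.9 CPM. In littermate muscle replicate 4 they were Rpl13a at 2.83 and Rps14 at 205 CPM. In ERRα3SA livers they were Rpl7l1 at 79.7 CPM (replicate 2) and Rps2 at 495 CPM (replicate 4). In ERRα-/- saline liver replicate 4 they were a shift of 0.17, Rpl22l1 at 8.93 CPM and Rps19 at 76 CPM. WT saline liver replicate 1 had Rplp0 at 485 and Rps18 at 139 CPM, and WT insulin liver replicate 3 had Rps29 at 15.8 CPM. Effects that differ between groups were the interaction, with 23 members higher and 1 lower (Rps19bp1 0.89, Rps14 0.79, Rpl36 0.75, Rps13 0.75 and Rpl35 -0.71), and the ERRα3SA effect in muscle minus liver, with 33 higher and 0 lower (Rpl24 2.18, Rpl22l1 1.84, Rps28 1.12 and Rpl39 1.07). The causes were not tested.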

How the results depend on the processing

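The direction of every median held under all alternatives, except for insulin in ERRα-/- liver and for ERRα-/- against WT livers after insulin. The link between level and shift kept a positive sign over all samples of a set (not always within muscle groups), but its size in muscle did not hold. With the length trend removed, the number of members called was 3 for insulin in WT liver, 2 for insulin in ERRα-/- liver, 15 for ERRα-/- against WT livers after insulin, 7 for the interaction, 1 for ERRα3SA liver and 16 for ERRα3SA muscle. The medians under it were 0.06 for insulin in WT liver, -0.05 for insulin in ERRα-/- liver, 0.20 after insulin, 0.13 for the interaction, -0.07 for ERRα3SA liver and -0.10 for muscle against liver. A replicate block gave 1 call for ERRα-/- against WT livers after insulin, 7 for ERRα3SA liver and 17 for ERRα3SA muscle (median 0.22). A replicate block with the length trend removed gave 4 calls for insulin in WT liver, 2 in ERRα-/- liver (median 0.012), 11 after insulin, 4 for the interaction (median 0.11), 2 for ERRα3SA liver, 12 for ERRα3SA muscle (median 0.18) and a median of -0.10 for muscle against liver. The labels give no pairing, and in no comparison was the correlation between samples of the same number over 0.1 in every pair (-0.18 to 0.24). Fitting 4 groups together gave 22 calls for insulin in WT liver, 6 in ERRα-/- liver and 1 for ERRα3SA liver. The share of all genes called in the block and joint fits is not given, so these counts are not set against it. Means in place of medians gave a link of 0.62 in the insulin livers and 0.44 in the muscles (0.80 within groups). Leaving out 1 library gave 4 to 33 calls for insulin in WT liver, 2 to 18 in ERRα-/- liver, 0 to 4 for ERRα-/- against WT livers after insulin, 11 to 46 for the interaction and 1 to 14 for ERRα3SA liver. It gave 49 to 71 for ERRα-/- against WT saline livers, and the share of all genes called in those fits is not given. For ERRα3SA muscle the median ran from 0.24 to 0.29, and the link ran from 0.73 to 0.98 in the livers of that experiment and from 0.045 to 0.96 in its muscles. Members sharing under 10% of their exon bases, and the link without each sample, were alternatives chosen after seeing the data, and the first gave 2 calls for ERRα3SA liver. For the named members, 514 of 562 results under alternatives kept direction and call, 48 lost the call and 0 reversed. The cause of these moves was not tested. Members under 1 CPM rest on few reads, which limits what their counts can show.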
